A study of Mus musculus with 16 samples.

Results

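A set of 8 inducible growth-arrest and phosphatase feedback genes was examined in sorted CD4+CD8+ thymocytes: Gadd45a, Gadd45b, Gadd45g, Ppp1r15a, Dusp1, Dusp2, Dusp5 and Dusp6. They were chosen by symbol as the Gadd45 family, Ppp1r15a and dual-specificity phosphatases, and are 8 of the 46517 gene identifiers in the files. The choice was made with the differences between the control, knockout-labelled and transgenic groups in view, so those differences are given as values with no test. All 8 passed the filter on low counts, which left 14933 genes. RNA was sequenced from the thymi of 16 mice aged 6 to 7 weeks, 1 library per mouse. The 5 transgenic mice (TG; 3 male and 2 female) were NOD-AI4-60A, carrying an Nfkbid transgene. The 5 knockout-labelled mice (KO; 4 male and 1 female) were NOD-AI4-Nfkbid-/-. The 6 controls (CTL; 3 male and 3 female) were NOD-AI4. All groups thus share the NOD-AI4 background, in which the nonobese diabetic strain carries an AI4 T cell receptor transgene from a diabetogenic CD8+ T cell clone. Nfkbid encodes an atypical nuclear inhibitor of the NF-kB family. Which promoter drives the transgene is not stated in the labels.

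GADD45 proteins are small stress- and receptor-induced proteins that bind MAP3K4 and so activate p38 and JNK, and that also bind CDK1 and PCNA. Ppp1r15a, also called Gadd34, encodes a subunit that directs protein phosphatase 1 to the translation factor eIF2α and reverses the block on protein synthesis in stress. Dual-specificity phosphatases of the MAP kinase phosphatase class remove phosphate from both the threonine and the tyrosine of active MAP kinases and are themselves induced by the pathways they switch off. In double-positive thymocytes, T cell receptor signals reach ERK, p38 and JNK, and the strength of these signals bears on positive and negative selection.

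Library totals ran from 18546570 to 25836799 estimated counts in TG, 21662210 to 35637813 in KO and 17955743 to 26586220 in CTL libraries. Levels are in CPM, counts per 1000000 of the TMM-scaled library total, unless TPM is named. Nfkbid was at 114.7 to 309.6 CPM in TG libraries, 28.2 to 37.8 CPM in KO libraries and 28.9 to 36.9 CPM in CTL libraries, so that it was higher in TG, and the libraries labelled knockout did not have less of the transcript than controls. Summed over 9 double-positive thymocyte markers, levels were 5210 to 5870, 5460 to 6710 and 5290 to 7770 CPM in TG, KO and CTL libraries, with none of the 9 at 0. Summed B cell markers (5 of 5 tested) were at 3.71 to 25.9 CPM in TG, 1.82 to 2.21 in KO and 2.06 to 4.06 in CTL libraries. Macrophage markers (5 of 5 tested) were at 10.6 to 16.9, 2.82 to 6.87 and 3.93 to 7.58 CPM, and dendritic cell markers (4 of 5 tested) at 6.59 to 8.33, 1.08 to 6.99 and 1.23 to 3.06 CPM in the same order. Granulocyte markers (0 of 4 tested) stayed at 0.498 CPM or less, with Ly6g at 0 in every library. Erythroid markers (3 of 4 tested) were at 6.87 to 50, 4.24 to 40.3 and 4.77 to 84.7 CPM, thymic epithelial markers (2 of 5) at 1.99 CPM or less, stromal and endothelial markers (2 of 5) at 181 to 202 CPM, of which Pecam1 gave 180.5 to 201.8 and each of the others 0.824 or less, and NK cell markers (2 of 4) at 11.4 to 15.3, 10.6 to 13.2 and 8.76 to 10.4 CPM in TG, KO and CTL libraries. Of the NK cell markers, Prf1 gave 7.32 to 13.6 CPM and each of the others 2.24 or less. The part of any of these cell types in the results below was not tested. All control mice had identifiers of 1 prefix and all TG and KO mice another, so the difference of TG or KO from CTL and that between the 2 identifier series cannot be told apart. The comparison of TG with KO lies inside 1 series. Both comparisons with controls use the same 6 control libraries. In sorted bulk cells, fewer cells that express a gene and less RNA per cell cannot be told apart.

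The sequences upstream of 3 members are shown because they differ in the motifs of signal-induced genes and the genes differ in how they stood against the controls: Ppp1r15a and Dusp1 were among the members farthest below control levels, and Dusp5 was not below them. Each is the 250 bases before the RefSeq start (build GRCm38.p6), given 5′ to 3′ on the gene's own strand. Capitals mark the cyclic-AMP response element (CRE, TGACGTCA), its shorter core (TGACG) on either strand, and CArG boxes, the sites of serum response factor. The windows lie at chr7:45526269-45526518 on the minus strand for Ppp1r15a, chr17:26508473-26508722 on the minus strand for Dusp1 and chr19:53528895-53529144 on the plus strand for Dusp5.
Ppp1r15a: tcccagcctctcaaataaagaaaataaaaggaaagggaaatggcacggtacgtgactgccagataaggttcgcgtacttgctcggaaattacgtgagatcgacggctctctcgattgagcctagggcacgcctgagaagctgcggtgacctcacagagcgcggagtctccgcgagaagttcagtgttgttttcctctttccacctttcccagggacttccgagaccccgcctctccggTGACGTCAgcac
Dusp1: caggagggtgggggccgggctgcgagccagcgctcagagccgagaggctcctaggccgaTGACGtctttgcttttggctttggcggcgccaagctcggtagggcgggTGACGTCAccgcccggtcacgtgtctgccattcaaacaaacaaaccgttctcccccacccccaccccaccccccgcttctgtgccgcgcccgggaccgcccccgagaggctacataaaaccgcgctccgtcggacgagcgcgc
Dusp5: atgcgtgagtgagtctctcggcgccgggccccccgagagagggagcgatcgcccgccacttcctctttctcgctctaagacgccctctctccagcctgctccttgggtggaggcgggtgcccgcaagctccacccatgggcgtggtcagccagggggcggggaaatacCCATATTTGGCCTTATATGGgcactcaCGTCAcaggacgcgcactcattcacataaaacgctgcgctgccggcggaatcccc
Ppp1r15a had 1 full CRE, starting 12 bases before the start, and Dusp1 had 1 starting 143 bases before it. Of 32851 RefSeq windows of this length, 1.55% held a full CRE, which contains the core on both strands. Dusp5 held a single core, starting 55 bases before the start, and 17.8% of windows held at least 1. Neither the full CRE nor the core was found in Gadd45a, Gadd45b, Gadd45g, Dusp2 or Dusp6. The Gadd45 genes were also lower than in controls. The log2 fold changes of Gadd45g were -1.26 in TG and -1.45 in KO, beside -1.29 and -1.08 for Dusp1. Dusp5 also had 2 adjoining CArG boxes, starting 82 and 72 bases before the start, and 1.47% of windows held such a box. The E-box CACGTG, present in 6.02% of windows, was found in Gadd45b, Gadd45g, Dusp1 and Dusp2. A loose NF-kB pattern, GGG and CC with any 5 bases between them on either strand, was found in 45.8% of windows and in all members but Gadd45b and Ppp1r15a. The AP-1 pattern TGANTCA, in 6.75% of windows, was in none of the 8. These matches describe letters in 1 window and say nothing of binding.

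Before any comparison of groups, the genes were set in order on the deposited TPM scale, which is per transcript length. In TG libraries Dusp2, a nuclear phosphatase of ERK and p38 abundant in lymphocytes, was highest at 61.8 ± 4.09 TPM, followed by Gadd45a at 44.0 ± 3.12 TPM (SD, n = 5). Dusp6 at 27.2 and Dusp5 at 20.2 TPM had overlapping ranges in TG, and below them came Dusp1 at 13.1 and Ppp1r15a at 8.83 TPM. Gadd45b at 5.11 and Gadd45g at 4.40 TPM closed the order in TG, also with overlapping ranges. The KO order was the same by mean, from Dusp2 at 56.8 to Gadd45g at 4.01 TPM. In KO, however, Dusp2 overlapped with Gadd45a, and each neighbour overlapped with the next from Dusp6 to Ppp1r15a. Gadd45b and Gadd45g also overlapped there. In CTL libraries Dusp2 at 97.1 ± 28.5 and Gadd45a at 80.6 ± 9.31 TPM again led with overlapping ranges (SD, n = 6). Next in CTL was Ppp1r15a at 43.3 TPM, overlapping with Dusp1 at 38.7, which overlapped with Dusp6 at 30.3, and Dusp5 at 19.3, Gadd45g at 11.9 and Gadd45b at 7.69 TPM came last. Ppp1r15a thus stood below Dusp6, Dusp5 and Dusp1 by mean in TG and KO and above them in CTL. Gadd45g stood below Gadd45b by mean in TG and KO, with overlapping ranges, and above it in CTL.

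The Gadd45 genes were lower in TG and KO than in control thymocytes, Gadd45g by the most. Gadd45g, first known as a cytokine-induced member of the family, lies at chr13:51846678-51848468 on the plus strand (GRCm38, as for all positions of genes given here). It was at 2.83, 1.91, 3.00, 2.39 and 3.29 CPM in TG replicates 1 to 5, at 2.04, 1.96, 2.84, 1.88 and 3.16 CPM in KO replicates 1 to 5, and at a lowest of 5.09, a median of 6.24 and a highest of 8.28 CPM in CTL libraries. Every TG and every KO library was below every CTL library, and TG and KO libraries were mixed among each other. The log2 fold change was -1.26 (SE 0.18) for TG over CTL, -1.45 (SE 0.19) for KO over CTL and 0.19 (SE 0.20) for TG over KO.

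Gadd45a, a p53 target and the family member best known from DNA damage, lies at chr6:67035096-67037457 on the minus strand. Its level was 33.5, 28.0, 28.5, 28.1 and 27.2 CPM in TG replicates 1 to 5, 31.4, 29.1, 29.4, 24.5 and 36.5 CPM in KO replicates 1 to 5, and 41.0, 44.7 and 49.9 CPM (lowest, median, highest) in CTL libraries. The groups did not overlap with controls, while the TG range lay inside the KO range. Gadd45a differed by -0.62 (SE 0.08) for TG over CTL and -0.54 (SE 0.08) for KO over CTL on the log2 scale, and by -0.09 (SE 0.08) for TG over KO. An antisense gene, E230016M11Rik, overlaps it and was at 0.5 CPM or less.

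Gadd45b, an NF-kB-induced member that restrains JNK in some cells, lies at chr10:80930073-80932204 on the plus strand. It was at 4.44, 4.26, 3.56, 3.88 and 3.52 CPM in TG replicates 1 to 5, 2.55, 3.75, 2.43, 3.61 and 4.71 CPM in KO replicates 1 to 5, and 4.60, 5.64 and 6.29 CPM (lowest, median, highest) in CTL libraries. TG libraries were all below CTL libraries, whereas KO replicate 5 was above CTL replicate 4, the lowest control. The differences were -0.49 (SE 0.16) for TG over CTL, -0.72 (SE 0.16) for KO over CTL and 0.23 (SE 0.17) for TG over KO. Without CTL replicate 1 and KO replicates 1 to 3, libraries with high MHC class II transcripts, the KO over CTL difference was -0.39 and the TG over KO difference -0.09. These libraries were picked after seeing the data, and all TG libraries were kept. Summed dendritic cell markers were at 6.59 to 8.33 CPM in TG and 1.08 to 6.99 CPM in KO libraries, those left out included. In the KO libraries kept, replicates 4 and 5, Flt3, Itgax, Siglech and Clec9a were each below every TG library, and Xcr1 overlapped with TG. This setting thus does not match TG and KO libraries for such cells. In males alone the TG over KO difference was -0.01.

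Ppp1r15a had the largest difference of the 8 in both comparisons with controls. It lies at chr7:45522916-45526268 on the minus strand, and its upstream window is shown above. Levels were 15.5, 10.6, 12.8, 15.4 and 13.7 CPM in TG replicates 1 to 5, 16.1, 12.1, 13.4, 13.8 and 24.4 CPM in KO replicates 1 to 5, and 49.7, 58.4 and 105 CPM (lowest, median, highest) in CTL libraries. The highest TG or KO library, KO replicate 5, was below the lowest control, and the highest control, replicate 6, stood well above the other 5, which reached 59.5 CPM. Ppp1r15a differed by -2.21 (SE 0.22) for TG over CTL, a 4.63-fold lower level, and by -1.95 (SE 0.23) for KO over CTL, a 3.86-fold lower level. TG over KO was -0.26 (SE 0.23). Without CTL replicate 6 the differences from controls were -2.08 in TG and -1.83 in KO. Tulp2, which overlaps Ppp1r15a on the other strand, was at 0.29 CPM or less in TG and KO and 0.71 to 1.93 CPM in CTL libraries.

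**Figure D1:**
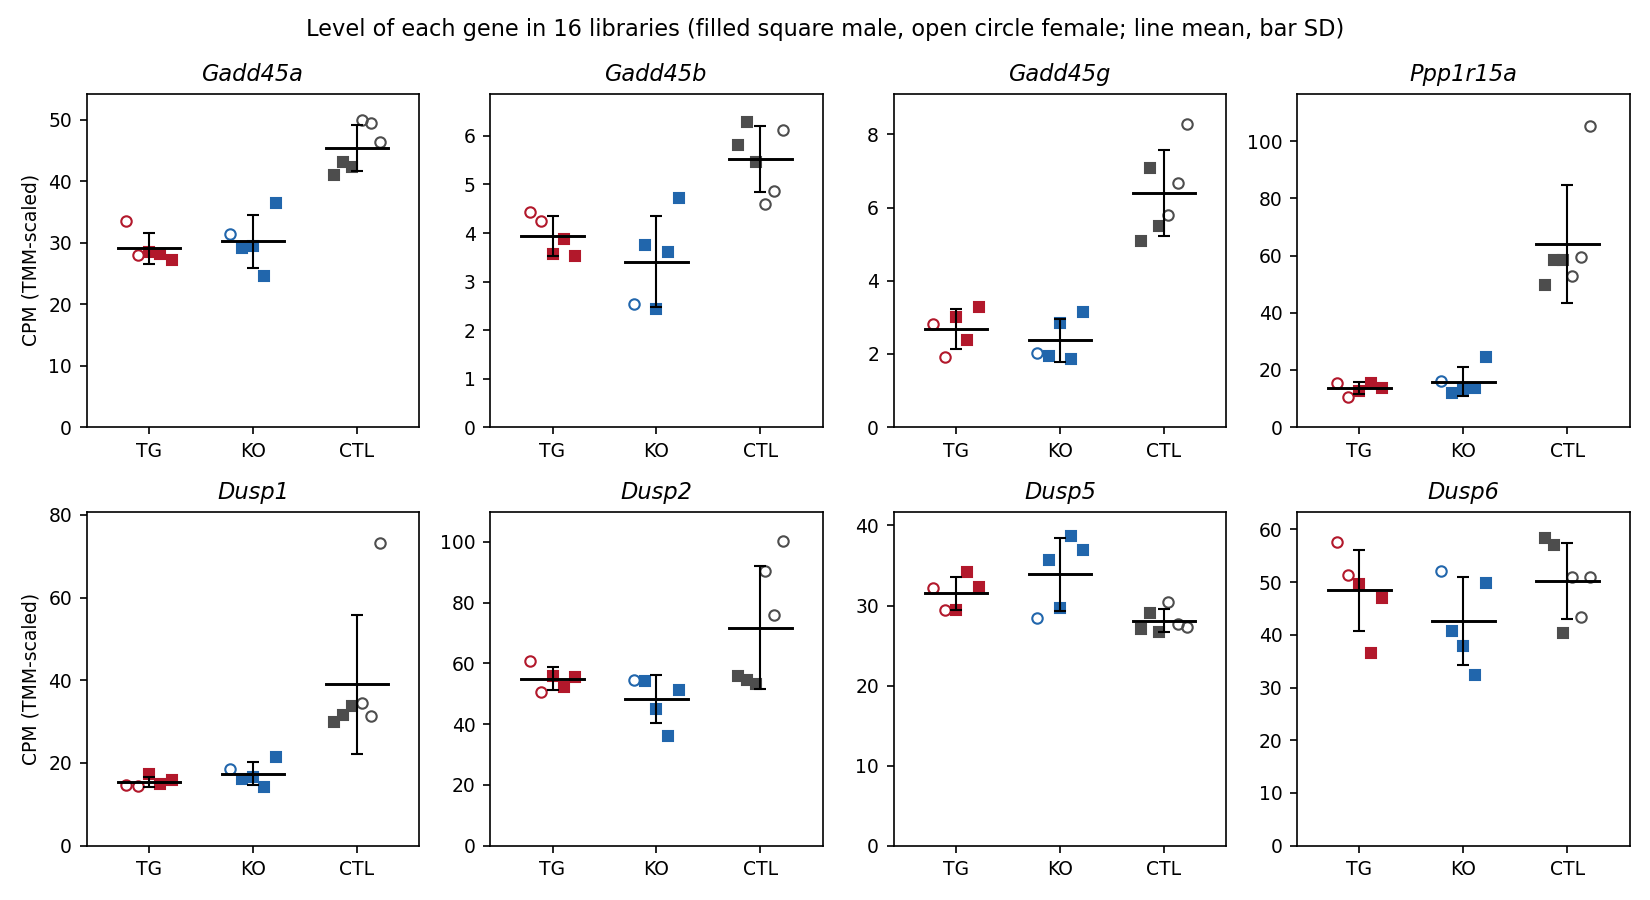
Level of each of the 8 genes in CPM in every library of the TG, KO and CTL groups, from left to right; filled squares are males, open circles females, the line is the mean and the bar the SD. Ppp1r15a, Gadd45g, Gadd45a and Dusp1 stand lower in every TG and KO library than in every control, and Dusp5 does not.

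Of the nuclear phosphatases, Dusp1 was lower in TG and KO than in controls, Dusp2 was below the female controls, and Dusp5 was not lower. Dusp1, also called MKP-1, is an immediate-early phosphatase of p38, JNK and ERK at chr17:26505590-26562128 on the minus strand, an annotated span that reaches past the RefSeq start used above. It was at 14.7, 14.4, 17.4, 15.0 and 15.96 CPM in TG replicates 1 to 5, 18.5, 16.1, 16.7, 14.2 and 21.6 CPM in KO replicates 1 to 5, and 29.8, 32.7 and 73.2 CPM (lowest, median, highest) in CTL libraries. TG and KO libraries were below all controls, and CTL replicate 6 was again highest, with the other controls at 34.6 CPM or less. Dusp1 differed by -1.29 (SE 0.21) for TG over CTL, by -1.08 (SE 0.21) for KO over CTL and by -0.20 (SE 0.22) for TG over KO. Without CTL replicate 6 the differences from controls were -1.09 in TG and -0.91 in KO. Ergic1, on the other strand of the same region, was at 38.7 to 55.9 CPM and higher in TG and KO than in controls; the strand setting of the counting is not known here.

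Dusp5, a nuclear phosphatase specific for ERK, lies at chr19:53529109-53542431 on the plus strand. It was at 32.2, 29.5, 29.5, 34.3 and 32.3 CPM in TG replicates 1 to 5, 28.4, 35.7, 29.7, 38.7 and 36.9 CPM in KO replicates 1 to 5, and 26.7, 27.55 and 30.5 CPM (lowest, median, highest) in CTL libraries. The ranges overlapped in all 3 comparisons, with TG and KO libraries in the upper part. The log2 differences were 0.16 (SE 0.08) for TG over CTL, 0.25 (SE 0.08) for KO over CTL and -0.09 (SE 0.08) for TG over KO. With the same class II-high libraries left out, those of KO over CTL and TG over KO were 0.41 and -0.26, and every TG library was then below both remaining KO libraries.

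Dusp6, the cytoplasmic ERK phosphatase also called MKP-3, lies at chr10:99263231-99267489 on the plus strand. Its level was 57.5, 51.3, 49.7, 36.6 and 47.0 CPM in TG replicates 1 to 5, 52.1, 40.7, 37.9, 32.4 and 49.9 CPM in KO replicates 1 to 5, and 40.3, 50.9 and 58.4 CPM (lowest, median, highest) in CTL libraries. All 3 groups overlapped. The differences were -0.05 (SE 0.13) for TG over CTL, -0.21 (SE 0.13) for KO over CTL and 0.16 (SE 0.14) for TG over KO. That of TG over CTL was 0.0018 without CTL replicate 1.

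**Figure D2:**
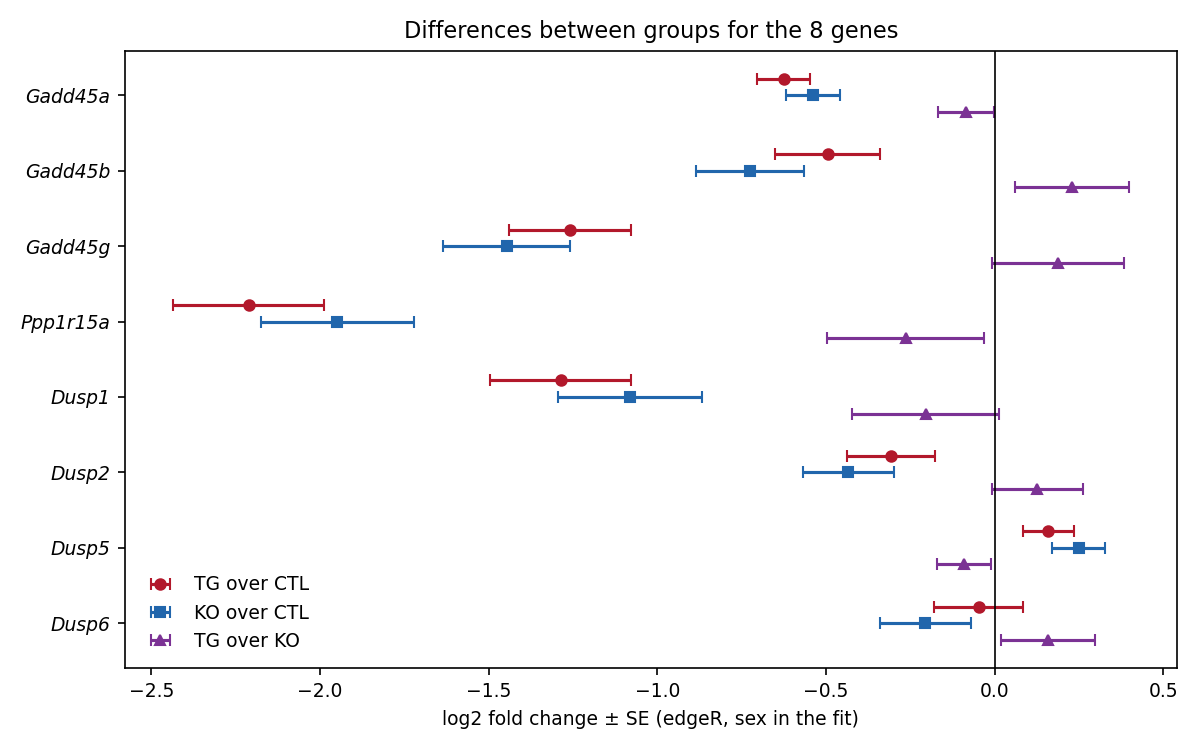
Log2 fold change with its SE for each gene, as TG over CTL (circles), KO over CTL (squares) and TG over KO (triangles). The differences from controls reach -2.21 in TG and -1.95 in KO at Ppp1r15a, while those of TG over KO lie between -0.26 and 0.23.

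Counted over the 8 genes, every TG library was below every CTL library for 5 genes, where 7.88% of all tested genes behaved so. For KO and CTL libraries the count was 4, where it was 5.34% of all tested genes, and it was 5 without CTL replicate 4 or KO replicate 5. The genes were chosen on these contrasts, so nothing is read from either count. Between TG and KO libraries the count was 0, with 0.763% of all tested genes. The median log2 fold change over the 8 was -0.56 for TG over CTL, -0.63 for KO over CTL and 0.02 for TG over KO, against 0.03, 0.02 and 0.00 over all tested genes.

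The rule that chose the genes did not use sex, so it could be tested. Across all groups 0 of the 8 genes differed between males and females (edgeR's quasi-likelihood test, Benjamini-Hochberg adjusted over all genes; 0.141% of genes called), and 2, Gadd45a and Dusp2, had an unadjusted p under 0.05; DESeq2 also called 0. In controls alone Dusp2 was called, 1 of the 8, where 0.209% of all genes were. Dusp2, also called PAC-1, lies at chr2:127336159-127338376 on the plus strand. It was at 56.0, 54.5 and 53.4 CPM in CTL males (replicates 1 to 3) and 90.4, 75.9 and 100.4 CPM in CTL females (replicates 4 to 6). The 3 control females stood above all other libraries, with TG at 60.8, 50.6, 55.8, 52.4 and 55.5 CPM and KO at 54.7, 54.2, 45.03, 36.0 and 51.3 CPM in replicates 1 to 5. The difference of control males from control females was -0.70 (SE 0.09; edgeR adjusted p = 0.00591), with all 3 males below all 3 females. The call was lost without CTL replicate 3 (edgeR adjusted p = 0.0631). In controls the 3 females were also the shallower libraries, with 25052921 to 26586220 counts in the 3 males and 17955743 to 18888169 in the 3 females, so sex and depth cannot be told apart there. The heat-shock genes also separated them: Hspa1a was at 33.3 to 64.99 CPM in the 3 CTL males and 1.44 to 6.36 CPM in the 3 CTL females, and Hspa1b at 67.5 to 119 and 0.717 to 13.1 CPM. The part of tissue handling in the Dusp2 difference was not tested.

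In TG mice Dusp2 averaged 54.5 ± 1.88 CPM in 3 males and 55.7 ± 7.22 CPM in 2 females (SD), a log2 difference of -0.01 (SE 0.10; edgeR adjusted p = 0.995). The KO group had 1 female and was not tested for sex. In TG mice 0 of the 8 genes were called between the sexes by edgeR, also at an unadjusted p under 0.05, where 0.0834% of all genes were called. TG over CTL for Dusp2 was -0.03 (SE 0.09) in males and -0.72 (SE 0.10) in females. The difference between these differences, 0.69 (SE 0.14), was not called by edgeR (adjusted p = 0.141), with 0 of the 8 genes called and 0.0278% of all genes called. Dusp2 was the 1 gene with an unadjusted p under 0.05. It was called by DESeq2 (adjusted p = 0.00472), a run added after seeing the data, and, in edgeR, without TG replicate 1 (adjusted p = 0.0282). Over both sexes together Dusp2 differed by -0.31 (SE 0.13) for TG over CTL, -0.43 (SE 0.13) for KO over CTL and 0.13 (SE 0.14) for TG over KO, with overlapping groups. In males alone those differences from controls were -0.03 in TG and -0.24 in KO.

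**Figure D3:**
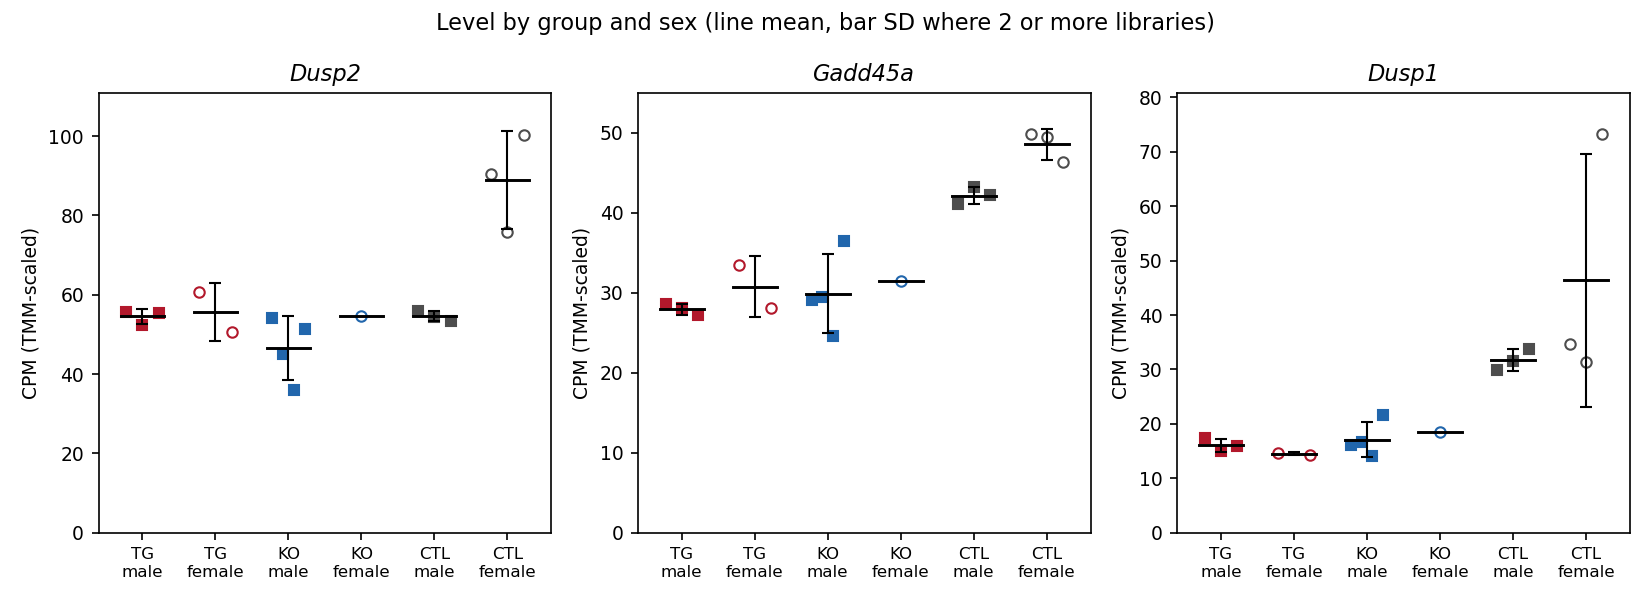
Level in CPM by group and sex for Dusp2, Gadd45a and Dusp1; the line is the mean and the bar the SD where there are at least 2 libraries. The control females stand apart for Dusp2 at 75.9 to 100.4 CPM, and the control males, at 53.4 to 56.0 CPM, lie within the range of the TG and KO mice.

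How far the genes varied together inside groups was described by the correlation of their log2 CPM deviations from the group means over 16 libraries, which share depth and scaling. Dusp5 varied least and Ppp1r15a most, with an SD within groups of 0.343 on the log2 scale for Ppp1r15a. Ppp1r15a and Dusp1 varied together (Pearson r = 0.812, Spearman rho = 0.650), with r = 0.667 without CTL replicate 6. Gadd45g followed Ppp1r15a with r = 0.688 (rho = 0.674) and Dusp1 with r = 0.609 (rho = 0.697). Gadd45a and Dusp2 had r = 0.670 (rho = 0.794), and r = 0.749 without CTL replicate 6, so which pair was closest turned on the measure and on that library. Sex was not taken out of these deviations, and in controls every female library stood above every male library for both Gadd45a and Dusp2. Dusp5 and Dusp6 had the lowest value, r = -0.301 (rho = -0.294).

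**Figure D4:**
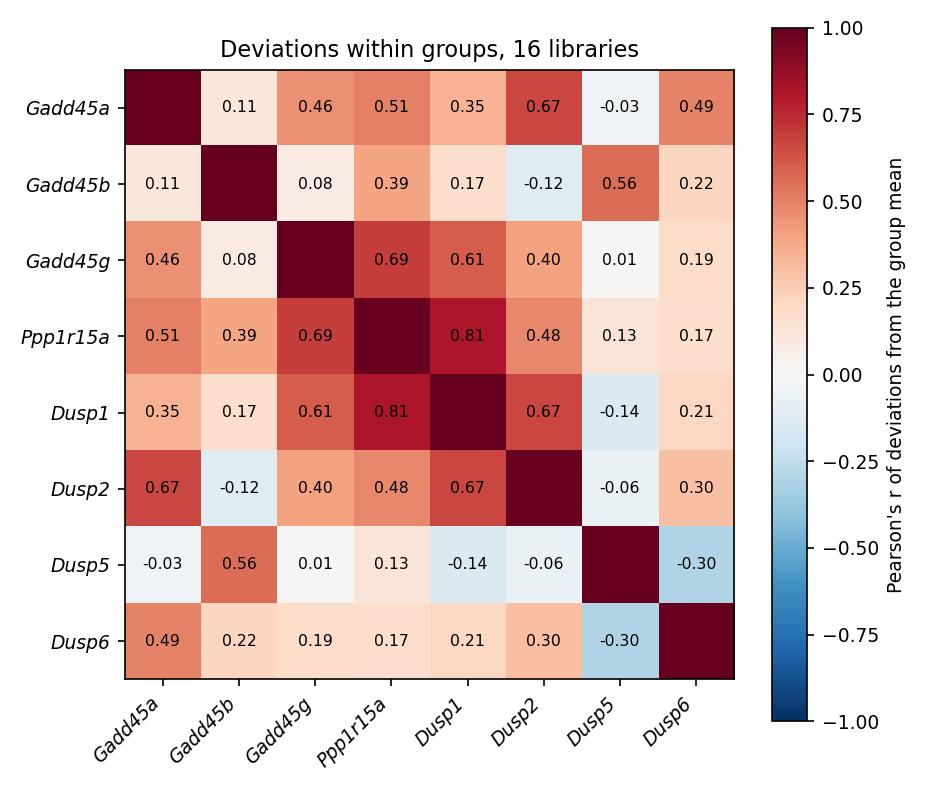
Pearson's r of the deviations from the group means for each pair of the 8 genes over 16 libraries. Pairs among Ppp1r15a, Dusp1 and Gadd45g lie at 0.609 to 0.812, and those of Dusp2 with Gadd45a, 0.670, and with Dusp1, 0.669, lie in the same range.

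Among all other protein-coding genes at 1 CPM or more, those whose deviations were most like each member's were found by the same measure. For Ppp1r15a they were Rusc1 (r = 0.937, rho = 0.862) and Pde4dip (r = 0.935, rho = 0.841), and for Dusp1 they were Ifngr2, a chain of the interferon gamma receptor (r = 0.928, rho = 0.818), and Tmem131l (r = 0.925, rho = 0.662). Without the 2 libraries farthest from their group means, CTL replicate 6 and KO replicate 5, r was 0.806 for Rusc1 and 0.711 for Ifngr2. Gadd45a was most like Jakmip1 (r = 0.923, rho = 0.797) and Gadd45g most like Ankrd13d (r = 0.893, rho = 0.918). Dusp2 was most like Plpp5 (r = 0.903, rho = 0.876), Dusp6 most like Atp1b1, a sodium pump subunit (r = 0.925, rho = 0.909), Gadd45b most like Brk1 (r = 0.833, rho = 0.809) and Dusp5 most like Zfp282 (r = 0.799, rho = 0.718). Each was picked as the highest among all genes compared, so that its size is not evidence of a link.

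The genes around the 8 were taken from pathway lists and tested with edgeR, adjusted over all genes. The lists, like the members, were chosen with earlier results of these data known. Their p-values and counts against controls thus describe these data and are no independent support. Of the other MAP kinase phosphatases 4 of 6 were tested, and 2 rose and 0 fell in both TG and KO, while 23% of all genes were called higher in TG and 16.4% in KO. Dusp4, a nuclear phosphatase close to Dusp1, averaged 61.5 ± 4.33 CPM in TG, 54.5 ± 3.74 in KO and 38.1 ± 5.47 in CTL libraries (SD, n = 5, 5 and 6). It rose by 0.68 (SE 0.08; edgeR adjusted p = 1.81e-05) in TG and 0.48 (SE 0.08; edgeR adjusted p = 0.000721) in KO, so that it stood higher where Dusp1 stood lower. Dusp10, which acts on p38 and JNK, rose by 0.15 (SE 0.04; edgeR adjusted p = 0.0119) in TG and 0.22 (SE 0.04; edgeR adjusted p = 0.00174) in KO. The TG call of Dusp10 was lost without CTL replicate 2 (edgeR adjusted p = 0.102), TG replicate 4 (0.0833) or TG replicate 5 (0.0637), with no filter (0.0766), with only the 2 groups in the fit (0.0541) and in males alone (0.102). Of the atypical phosphatases, which lack the MAP kinase docking domain, 7 of 16 were tested, and 1 rose and 1 fell in both groups. Dusp12 rose by 0.54 (SE 0.09) in TG and 0.54 (SE 0.09) in KO, and Dusp11, which acts on RNA, fell by 0.23 (SE 0.03) and 0.26 (SE 0.04).

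The MAP kinases and the kinases above them, which the phosphatases oppose, were mostly not called: of 18 tested of 20 listed, 1 rose and 5 fell in TG, and 1 rose and 1 fell in KO. Mapk3, which encodes ERK1, rose by 0.28 (SE 0.06; edgeR adjusted p = 0.00176) in TG and 0.26 (SE 0.06; edgeR adjusted p = 0.00545) in KO, calls lost in males alone (0.0817 in TG and 0.0529 in KO); the KO call was also lost with the class II-high libraries left out (0.121). Braf fell by 0.35 (SE 0.04) in TG and 0.25 (SE 0.04) in KO, and Map2k6, a kinase of p38, fell by 0.27 (SE 0.06) in TG. The KO count of falling genes was 5 without KO replicate 5, 2 without KO replicate 2, 3 or 4, 3 without CTL replicate 1 or 6, and 4 without TG replicate 2, 4 or 5. It was also 4 with RLE size factors, DESeq2 or the stricter filter, and 2, beside 2 rising, with no sex term or with the replicate block. The TG count of rising genes was 2 without CTL replicate 4 and 3 with the replicate block. Across all genes, 15.6% were called lower in TG and 10% in KO. Of other feedback inhibitors of the ERK pathway, 8 of 9 were tested, with 1 higher and 3 lower in TG and 0 higher and 2 lower in KO. Rasal3, a Ras GTPase-activating protein of lymphocytes, fell by 0.30 (SE 0.09; edgeR adjusted p = 0.0152) in TG and 0.29 (SE 0.09; edgeR adjusted p = 0.0308) in KO; the KO call was lost without KO replicate 1 (0.0755), 2 (0.05) or 4 (0.0525), and both calls in males alone (0.24 in TG and 0.134 in KO). Spry4 rose by 1.09 (SE 0.34; edgeR adjusted p = 0.0185) in TG from low levels, 1.26 ± 0.32 CPM in TG and 0.597 ± 0.446 in CTL. Errfi1 fell by 0.44 (SE 0.14; edgeR adjusted p = 0.023) in TG and Spred1 by 0.33 (SE 0.10; edgeR adjusted p = 0.0253) in KO. The call of Errfi1 was lost without CTL replicate 3 (0.0615) or TG replicate 1 (0.067) or 3 (0.0613) and in males alone (0.0744), and that of Spred1 without CTL replicate 1 (0.0502), 2 (0.0533) or 3 (0.0533). The call of Spry4 was lost with the interferon-high libraries, CTL replicate 2 and TG replicates 3 and 5, left out (0.0514). The TG count of falling inhibitors was 1 without TG replicate 1 or 3 or without the interferon-high libraries, and 0 in males alone. The KO count was 0 without the class II-high libraries, with edgeR adjusted p = 0.308 for Rasal3 and 0.0735 for Spred1. It was also 0 without the interferon-high libraries (edgeR adjusted p = 0.063 and 0.0772).

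Most partners of the GADD45 proteins rose in TG and KO. Of 7 listed and tested, 5 rose and 0 fell in TG and 6 rose and 0 fell in KO, with medians of 0.52 and 0.48 on the log2 scale, where 23% of all genes were called higher in TG and 16.4% in KO. Ccnb1, cyclin B1, averaged 152.1 ± 18.6 CPM in TG, 141.3 ± 28.1 in KO and 75.5 ± 11.04 in CTL libraries (SD), rising by 1.01 (SE 0.14; edgeR adjusted p = 0.000104) in TG and 0.89 (SE 0.14; edgeR adjusted p = 0.000827) in KO. Cdk1, its kinase, rose by 0.93 (SE 0.13) in TG and 0.87 (SE 0.14) in KO. Both also mark dividing cells. In males alone the count was 3 in both groups. The KO count was 3 with CTL replicate 2 left out and 2 with the class II-high libraries left out. Around Ppp1r15a, 12 of 14 genes of eIF2α kinases, phosphatase and downstream factors were tested, of which 4 rose and 1 fell in TG and 2 rose and 0 fell in KO. Of all genes 23% were called higher and 15.6% lower in TG, and 16.4% higher and 10% lower in KO, so in 12 genes these counts are no result about the list. Ppp1ca, the catalytic subunit that PPP1R15A binds, rose by 0.28 (SE 0.05; edgeR adjusted p = 0.000257) in TG and 0.23 (SE 0.05; edgeR adjusted p = 0.00225) in KO. Eif2s1, which encodes eIF2α itself, rose by 0.29 (SE 0.08; edgeR adjusted p = 0.0122) in TG and 0.24 (SE 0.09; edgeR adjusted p = 0.0455) in KO, and Atf4 fell by 0.15 (SE 0.05; edgeR adjusted p = 0.0302) in TG. The KO call of Eif2s1 was lost under most alternatives: without any 1 library other than CTL replicate 3 or KO replicate 5 (up to 0.176), with RLE size factors (0.0654), DESeq2 (0.0562) or limma-voom (0.0578), with no filter (0.0831) or the stricter one (0.0643), with only the 2 groups in the fit (0.0987) and in males alone (0.331). Its TG call was lost without CTL replicate 5 (0.0508) or TG replicate 2 (0.0775) and in males alone (0.586). That of Atf4 was lost without TG replicate 3 (0.0683) and in males alone (0.195). The TG count of rising genes was 2 without TG replicate 2.

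**Figure D5:**
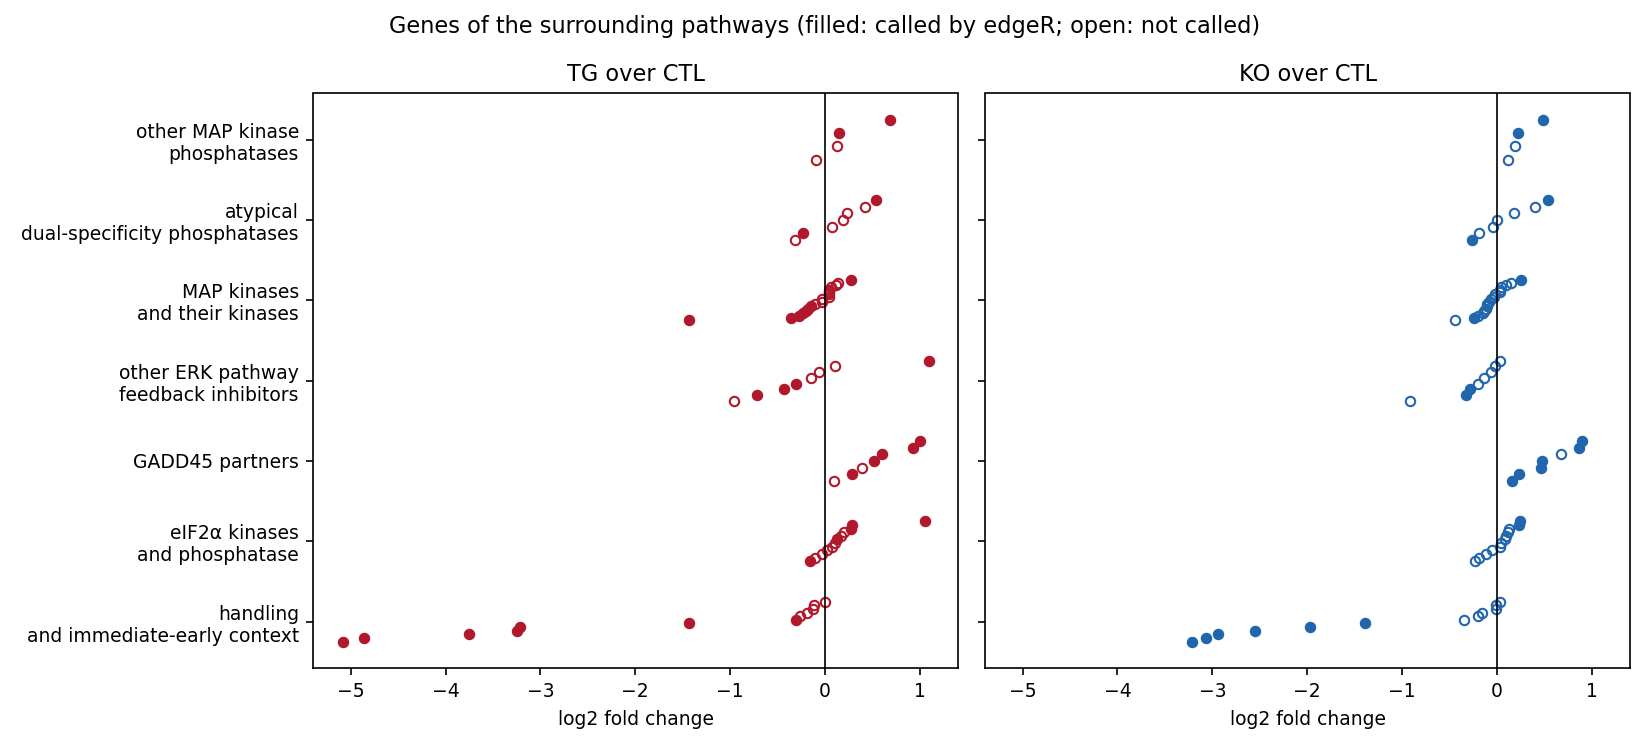
Log2 fold change of each tested gene of the 7 pathway lists, TG over CTL on the left and KO over CTL on the right; filled points were called by edgeR (adjusted over all genes) and open points were not. The GADD45 partners lie right of 0 in both panels, and the immediate-early and handling-stress list reaches -5.08 in TG, at the heat-shock gene Hspa1b, and -3.21 in KO, at Fos. Hspa1b was at 67.5 to 119 CPM in control males and 0.717 to 13.1 CPM in control females, beside 0.347 to 2.81 CPM in TG libraries.

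Immediate-early and handling-stress genes, which share induction by stimulation or tissue handling with Ppp1r15a and Dusp1, fell in part. Of 12 tested of 14 listed, 0 rose and 7 fell in TG and 0 rose and 6 fell in KO, with a median of -0.87 in both. Across all genes, 15.6% were called lower in TG and 10% in KO. Others of the list overlapped between groups. Egr1 was at 196.2 to 224.4 CPM in TG, 178.8 to 250.7 in KO and 184.2 to 233.2 in CTL libraries. Nr4a1 was at 56.85 to 77.47, 62.02 to 91.75 and 60.64 to 94.62 CPM in the same order. Fos, a partner of Jun in the AP-1 factor, averaged 6.19 ± 1.21 CPM in TG, 9.86 ± 10.4 in KO and 81.9 ± 27.7 in CTL libraries (SD), a fall by 3.75 (SE 0.50; edgeR adjusted p = 0.000149) in TG and by 3.21 (SE 0.49; edgeR adjusted p = 0.000893) in KO on the log2 scale. KO replicate 5 held Fos at 28.3 CPM, where KO replicates 1 to 4 had 4.09 to 6.18 CPM, and the KO value was -4.05 without replicate 5 and -2.49 with the class II-high libraries left out. Fosb fell by 3.22 (SE 0.36) in TG and by 1.97 (SE 0.33) in KO. The KO count was 2 with the class II-high libraries left out. The part of tissue handling in the levels of the 8 genes was not tested. Between TG and KO libraries, and between males and females, 0 genes of the 7 lists were called by edgeR in the fit to all libraries, where 1.17% and 0.141% of all genes were. At an unadjusted p under 0.05 there were 12 and 9 of 68, and DESeq2 called 1 in each. Spry4 was called between TG and KO libraries with only these 2 groups in the fit (1.08; edgeR adjusted p = 0.0246) and with a replicate block (1.26; 0.0335). A gene of the eIF2α list, 1 in each case, was called without robust estimation, without CTL replicate 2 and without TG replicate 4.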

How the data were processed

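Per the labels' protocols, live CD4+CD8+ thymocytes were sorted by flow cytometry, and total RNA (RIN above 9) was made into KAPA stranded libraries, 1 per mouse. The authors used Bowtie 1.0.0, SAMtools 0.1.18 and edgeR 3.24.3 with GRCm38 (mm10), per the submitters' processing notes; neither the program that counted the reads nor its strand setting is given there. For each of 46517 identifiers the deposited files list an expected count and a TPM value. The authors' TPM values sum to 1000000 in each library. Symbols and positions came from GENCODE's annotation of GRCm38, and upstream sequences from RefSeq (GRCm38.p6), matched by symbol for 8 of 8 genes.

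Estimated counts were rounded. After edgeR's expression filter by group and TMM scaling, all 16 libraries entered 1 robust quasi-likelihood fit with terms for group and sex (edgeR 4.0.16, R 4.3.3; 12 residual degrees of freedom, 14933 genes). The sex contrasts inside groups came from a fit to the TG and CTL libraries with group, sex and their interaction (7 residual degrees of freedom, 14385 genes). P-values were adjusted by Benjamini-Hochberg over all genes, with a threshold of 0.05. Each SE is the absolute log2 fold change divided by the root of its F statistic. Estimated counts carry counting error and the uncertainty of shared reads, and SDs here are over mice. The members and lists were chosen with earlier results of these data known. Named genes were all 8 members, up to 2 called genes per direction of each list by smallest p, and the 2 genes most like each member, of which the closer one is given for most. Alternatives were RLE size factors, library totals alone, DESeq2 1.42.0, limma-voom (limma 3.58.1), no filter (a total of 1 count), a filter of 1 CPM in 5 libraries, a fit without robust estimation, no sex term, males only, only the 2 groups compared, a replicate block, and each library left out. Those leaving out libraries with high class II or interferon-response transcripts, or CTL replicate 6 with KO replicate 5, were added after seeing the data. In the fit with the interaction of group and sex, so were library totals alone, DESeq2 and limma-voom.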

Additional observations from a re-analysis of the deposited data

Results flagged for a closer look

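Of 78 sets of values (26 genes in 3 groups), 8 had 1 library far from the others of its group by Dixon's test; chance flags about 1 in 20 such sets. In controls, replicate 6 was highest for Ppp1r15a (105 CPM, the next 59.5), Dusp1 (73.2 CPM, the next 34.6) and Spry4 (1.43 CPM, the next 0.629). In TG, replicate 1 was highest for Gadd45a (33.5 CPM, the next 28.5). In KO, replicate 5 was highest for Fos (28.3 CPM, the next 6.17) and replicate 1 for Spry4 (0.933 CPM, the next 0.455). KO replicate 4 was lowest for Errfi1 (2.59 CPM, the next 3.87) and highest for Atf4 (112 CPM, the next 96.4).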

How the results depend on the processing

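The median of the 8 genes kept its sign for TG over CTL (-0.66 to -0.54) and KO over CTL (-0.76 to -0.51) under every alternative run. Leaving out 1 library, the number of genes with every KO library below every CTL library was 4 to 5, and that for TG and CTL stayed at 5. The number with every TG library below every KO library was 1 (Dusp5) without the CTL and KO libraries with high class II, and 0 otherwise. The number of the 8 called between control males and females was 0 to 1 with each library left out, 0 without CTL replicate 3. For the difference of TG effects between males and females, it was 1 by DESeq2 and 0 to 1 with each library left out, 1 without TG replicate 1. The cause of these changes was not tested.

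Of TG over KO values, that of Gadd45g was -0.07 without the libraries with high interferon-response transcripts. Between TG and KO libraries DESeq2 called 1 listed gene. Same-numbered libraries of different groups varied together little (15 pairs, r = -0.164 to 0.345, 4 of them best with their own number). Those 4 were KO and TG replicates 1, 2 and 4 (r = 0.345, 0.123 and 0.111) and CTL and KO replicate 3 (r = 0.153). These values cannot settle whether the numbers pair any mice. With the replicate block the medians were -0.54 for TG over CTL, -0.64 for KO over CTL and 0.03 for TG over KO, the non-overlap counts were 5, 4 and 0, and 0 of the 8 were called between the sexes. The TG call of Errfi1 was lost with the block (edgeR adjusted p = 0.0552), and Spry4 was called higher in TG than in KO (0.0335). The block also raised the TG count of rising MAP kinase genes to 3 and of rising ERK inhibitors to 2, and gave 2 rising and 2 falling MAP kinase genes in KO. Gadd45b and Gadd45g, at 1.88 to 8.28 CPM, are the members where depth limits precision most.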
